A study of Mus musculus with 18 samples.

Results

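Of 55291 genes counted, 9 genes of meiotic prophase are described here in mouse oocytes with and without the lipid kinase VPS34: Hormad1, Hormad2, Sycp2, Sycp3, Meioc, Ythdc2, Mnd1, Dmc1 and Mlh3. Hormad1 and Meioc were chosen by their measured counts, which differed between the genotypes in opposite directions, so their values are given as a description, with no test in any comparison. The other 7 were chosen as prophase genes and were tested. The members divide into chromosome axis proteins (Hormad1, Hormad2, Sycp2, Sycp3), the pair that drives entry into prophase (Meioc, Ythdc2), strand exchange factors (Mnd1, Dmc1) and a crossover factor (Mlh3).

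The series concerns VPS34, encoded by Pik3c3, in RAB7 activation, Retromer placement and mitophagy of oocytes. All mice were females of 5 weeks whose Vps34 gene was floxed on both alleles. The labels name no Cre for the controls (Vps34 f/f), and the knockout (ZcKO) was Zp3-Cre positive. The Zp3 promoter is active in growing oocytes, so Cre acts after the chromosomes have passed through pairing and recombination, and not in the somatic cells of the follicle. Each genotype was sampled as fully grown germinal vesicle (GV) oocytes 46 h after PMSG, given to make follicles grow, and as metaphase II (MII) oocytes 14 h after hCG, which triggers ovulation. Each of these 4 groups had 3 libraries (n = 3 throughout), each a pool of 5 oocytes amplified by Smart-seq2 with ERCC spike-in RNA added. No label ties libraries to animals, so the p-values measure the spread between these libraries, which may be narrower than that between animals. The other 6 of the 18 samples, from 2-cell embryos, are not analysed here.

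In meiotic prophase, homologous chromosomes pair and exchange DNA along protein axes, to which SYCP2, SYCP3 and the HORMA-domain proteins HORMAD1 and HORMAD2 belong, and the synaptonemal complex then joins the axes. Breaks are repaired from the homologue by the recombinase DMC1, helped by the HOP2-MND1 complex, and nucleases resolve joint molecules, some of them into crossovers. MEIOC and the helicase YTHDC2 form an RNA-binding complex that lets germ cells leave mitosis and stay in prophase. In females these events take place in the fetal ovary, and oocytes then rest in late prophase until ovulation, so transcripts of these genes in GV and MII oocytes are those kept or made long after pairing.

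Gene totals ran from 2609783 to 4696626 counts per library, and levels are given as CPM, the counts of a gene scaled to the gene total of its library. The 10 oocyte markers summed to 24448 to 35691 CPM at GV and 12614 to 17695 CPM at MII, with 1 marker, Figla, at 0 in 1 library. The 16 cumulus and granulosa markers summed to 323 to 573 CPM at GV and 893 to 1637 CPM at MII, and Serpine2 made up 67.2% to 89.5% of that sum. Without Serpine2 the sum was 79.2 to 94.0 CPM in control GV, 52.6 to 74.6 CPM in ZcKO GV, 159 to 273 CPM in control MII and 95.9 to 537 CPM in ZcKO MII, and the part of these cells in the values below was not tested. Gene counts per ERCC count were 4.35 to 13.1 at GV and 1.51 to 2.42 at MII, so a gene can rise as a share of all gene counts and fall relative to the spike-in. Every library held 5 oocytes, but the number of cumulus and granulosa cells is not given. For those cells, fewer cells and less RNA per cell cannot be told apart. Pik3c3 stood at 35.5, 28.8 and 25.8 CPM in control GV and at 1.56, 1.65 and 2.67 CPM in ZcKO GV, 15.3-fold lower by the means. Its MII levels were 10.6, 21.4 and 17.1 CPM in control and 5.36, 2.42 and 3.21 CPM in ZcKO. The count covers the whole gene, and the columns of the table were read as C for control and T for ZcKO, a reading on which every direction between genotypes rests.

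The promoters of Hormad1, Meioc and Sycp3 are printed because, of the 8 members searched (all but Ythdc2), their 300-base windows held at least 1 of 2 motifs. One is CACGTG, the E-box recognised by MAX with its partners. The other, the core of sites recognised by E2F proteins, is GCGGGAA. A Polycomb complex that holds E2F6, MGA and MAX is known to silence germline genes in other cells. The windows run from 250 bases before to 50 bases after the RefSeq start (GRCm38.p6) and are given 5′ to 3′ on the gene's strand, with matches in capitals. They lie at chr3:95559427-95559726, chr11:102665335-102665634 and chr10:88459337-88459636, all on the plus strand. The Meioc window lies inside the GENCODE span of the gene, which starts at chr11:102663716, and no window at that start was searched.
Hormad1: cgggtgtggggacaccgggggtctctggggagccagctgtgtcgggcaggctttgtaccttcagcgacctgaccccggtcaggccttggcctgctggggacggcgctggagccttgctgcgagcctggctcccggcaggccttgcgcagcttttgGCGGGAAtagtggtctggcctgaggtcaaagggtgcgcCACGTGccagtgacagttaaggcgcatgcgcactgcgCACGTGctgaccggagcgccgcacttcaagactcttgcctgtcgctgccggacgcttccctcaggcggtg
Meioc: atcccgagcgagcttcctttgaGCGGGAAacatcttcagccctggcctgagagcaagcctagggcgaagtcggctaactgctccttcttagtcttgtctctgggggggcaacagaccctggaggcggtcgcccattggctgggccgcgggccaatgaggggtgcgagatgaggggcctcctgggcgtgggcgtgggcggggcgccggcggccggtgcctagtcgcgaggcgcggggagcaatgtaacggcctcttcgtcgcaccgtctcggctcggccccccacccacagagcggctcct
Sycp3: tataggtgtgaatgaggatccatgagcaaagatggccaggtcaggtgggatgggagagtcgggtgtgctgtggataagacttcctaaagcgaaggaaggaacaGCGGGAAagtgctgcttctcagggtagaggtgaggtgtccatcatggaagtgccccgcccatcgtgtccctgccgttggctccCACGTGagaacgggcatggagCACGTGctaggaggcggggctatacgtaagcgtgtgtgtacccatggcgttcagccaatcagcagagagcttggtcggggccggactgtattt

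Hormad1 had 2 matches to the E-box and 1 to the E2F core, and Sycp3 had the same numbers, 2 and 1. Meioc had 1 match to the E2F core and none to the E-box. Both strands were searched, and no match overlapped another. Of 27025 genes with a window of this length, 7.24% held the E-box, 4.66% held the E2F core and 0.463% held both. The windows of Hormad2, Sycp2, Mnd1, Dmc1 and Mlh3 held neither string of letters. CpG dinucleotides numbered 24 in the Hormad1 window, 28 in Meioc and 15 in Sycp3, and 10 (Sycp2) to 22 (Mlh3) in the other 5, against a median of 7 over all windows. These matches are descriptions of sequence and show no binding.

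Hormad1, the axis protein that recruits break-forming factors and watches over pairing, was the member with the greatest difference between genotypes at GV. Hormad1 lies at chr3:95559677-95587671 (plus strand, GRCm38), a protein-coding gene. Its levels were 10.5, 5.01 and 7.03 CPM in control GV (7.51 ± 2.77, SD) and 0.311, 0.551 and 0.9998 CPM in ZcKO GV (0.621 ± 0.350). Every ZcKO GV library was thus far below every control. The counts behind these levels were 31, 19 and 33 in control and 1, 2 and 3 in ZcKO, and the gene passed the low-count filter at GV only through the control libraries. The log2 difference, ZcKO minus control, was -3.57 (SE 0.53), a 12.1-fold lower mean.

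At MII, Hormad1 was at 21.8, 29.3 and 34.2 CPM in control (28.4 ± 6.25) and at 18.0, 1.21 and 8.55 CPM in ZcKO (9.26 ± 8.42). The ZcKO MII libraries were spread widely, with the highest close to the lowest control and the lowest near the ZcKO GV level. The log2 difference was -1.68 (SE 0.64), a 3.07-fold lower mean, and it was -2.59 without ZcKO MII replicate 1 and -1.13 without ZcKO MII replicate 2. The library with the highest Hormad1 of the 3, replicate 1, also had the highest sum of the 16 cumulus and granulosa markers, 1637 CPM. Replicate 2, with the lowest Hormad1, had 1139 CPM, above the 893 CPM of replicate 3. In control MII the sums were 1512.5, 1280 and 1187 CPM in replicates 1, 2 and 3. Most of each sum was Serpine2, and without it the control MII sums ran from 159 to 273 CPM, in a different order of replicates. The part of these cells in the spread was not tested. Levels of the genotypes did not overlap at either stage, and the same was true per spike-in count. Of all genes tested, 7.26% at GV and 15.8% at MII had genotypes that did not overlap in CPM (6.02% and 11.7% per spike-in count), and nothing is read from Hormad1 being among them, since it was chosen for this difference.

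From GV to MII the share of Hormad1 among gene counts was 3.79-fold higher in control and 14.9-fold higher in ZcKO by the means. The log2 change was 2.07 (SE 0.50) in control and 3.94 (SE 0.77) in ZcKO. The ZcKO change was 3.06 without ZcKO MII replicate 1 and 4.49 without ZcKO MII replicate 2. The changes differed by 1.87 (SE 0.96), or by 0.98 without ZcKO MII replicate 1. Relative to the spike-in, the log2 change was 0.42 (SE 0.52) in control and 1.77 (SE 0.75) in ZcKO, and GV and MII libraries overlapped in both genotypes. Scaled in the same way to the ERCC total of the library, control GV libraries held 45.6, 35.1 and 61.1 and control MII libraries 40.3, 67.7 and 82.7 Hormad1 counts. The corresponding values were 4.07, 4.10 and 6.29 in ZcKO GV and 36.5, 2.67 and 12.9 in ZcKO MII. All genes tested had a median log2 change of -1.72 in control and -2.37 in ZcKO on this scale, so Hormad1 lay above the median in both.

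**Figure D1:**
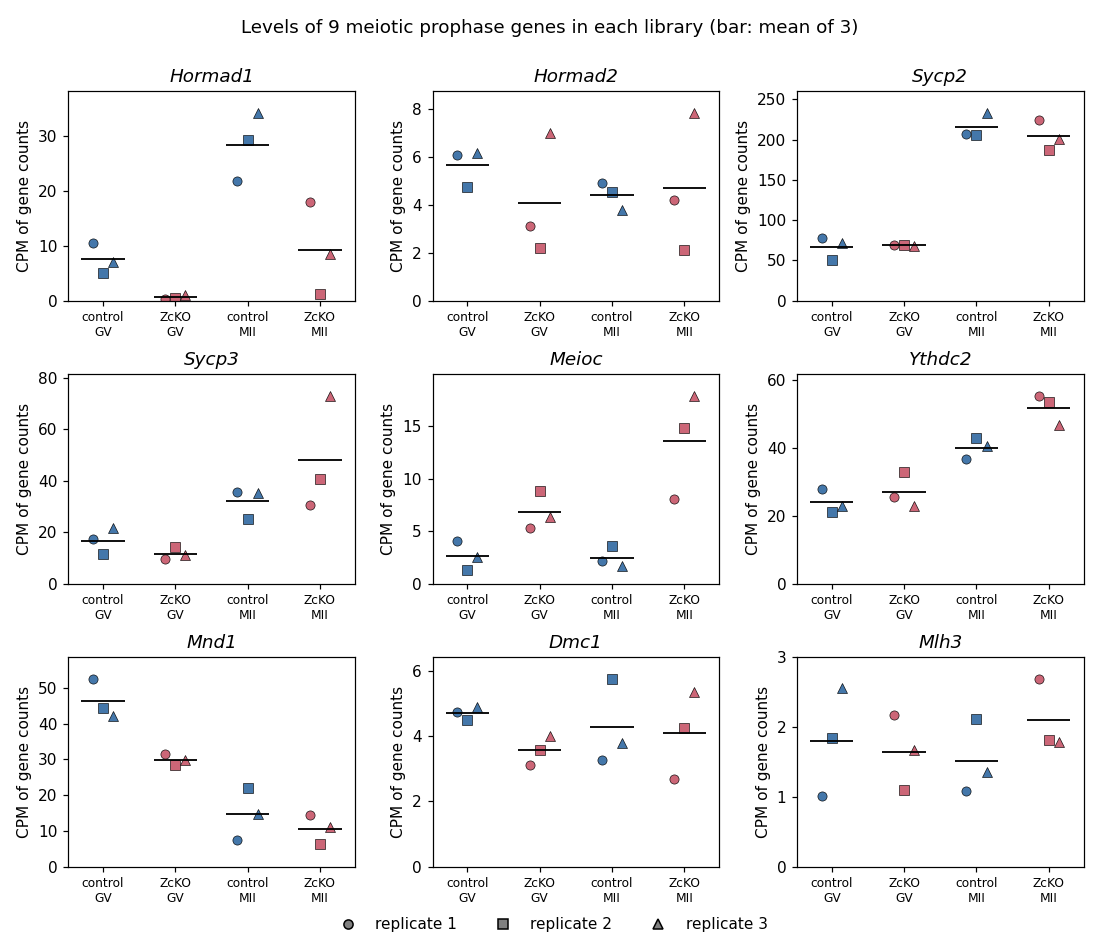
Level of each of the 9 genes in CPM (vertical axis, linear from 0) in the 12 libraries, by genotype and stage, where a point is 1 library, its shape the replicate number and a bar the mean of 3. Hormad1 sits lower and Meioc higher in ZcKO than in control at both stages with no overlap, while Sycp2 and Sycp3 sit higher and Mnd1 lower at MII than at GV in both genotypes.

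Hormad1 reads may be shared with 2 processed pseudogenes, because the handling of reads that map to several places is not given in the sources used here. Gm15529 (chr6:12857397-12858390) matched 922 bases of the Hormad1 transcript at 97.7% identity, and Gm7167 (chr15:91128728-91129897) matched 1112 bases at 92.1%. Gm15529 followed the pattern of Hormad1 at a lower level: 2.03, 0.264 and 3.41 CPM in control GV and 0 counts in each ZcKO GV library. Against a floor of 3 counts over the ZcKO GV group, its mean was at least 6.23-fold lower in ZcKO. At MII it was at 2.18, 6.34 and 8.15 CPM in control and 3.45, 0.303 and 3.92 CPM in ZcKO, where the genotypes overlapped. The Gm15529 counts amounted to 27.7% of those of Hormad1 in control GV and 19.5% in control MII, and Gm7167 had 0 to 5 counts per library. Summed with both copies, Hormad1 had means of 9.73 CPM in control GV, 0.621 CPM in ZcKO GV, 34.6 CPM in control MII and 12.6 CPM in ZcKO MII. The means of the sum were 15.7-fold lower in ZcKO at GV and 2.76-fold lower at MII, so counting the copies in left the direction in place.

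Over the 12 libraries, the 3 genes most like Hormad1 by Pearson's r of log2(CPM + 1) were Gm4349 (r = 0.924), Gm15529 (r = 0.915) and Eogt (r = 0.882), of 11818 genes ranked. These r values describe 4 groups of 3 libraries that share depth and genotype, and they carry no test. Gm4349 is a lincRNA at chr3:95427671-95431087, 129 kb before Hormad1 on the same strand. It was at 11.8, 9.23 and 6.17 CPM in control GV and 1.87, 1.10 and 2.67 CPM in ZcKO GV, with no overlap. The MII levels of Gm4349 were 12.5, 16.6 and 13.0 CPM in control and 8.05, 3.63 and 4.99 CPM in ZcKO, again with no overlap. The genotypes did not overlap for 7.26% of all genes tested at GV and 15.8% at MII. The log2 difference of Gm4349 between genotypes was -2.31 (SE 0.43) at GV and -1.38 (SE 0.35) at MII. Gm4349 was picked for likeness to Hormad1, itself chosen for its genotype difference, so no test is used and nothing is read from the separation. Eogt, which encodes a glycosyltransferase of the endoplasmic reticulum, differed less, with means of 4.66 and 3.50 CPM at GV and 7.85 and 5.84 CPM at MII in control and ZcKO.

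**Figure D2:**
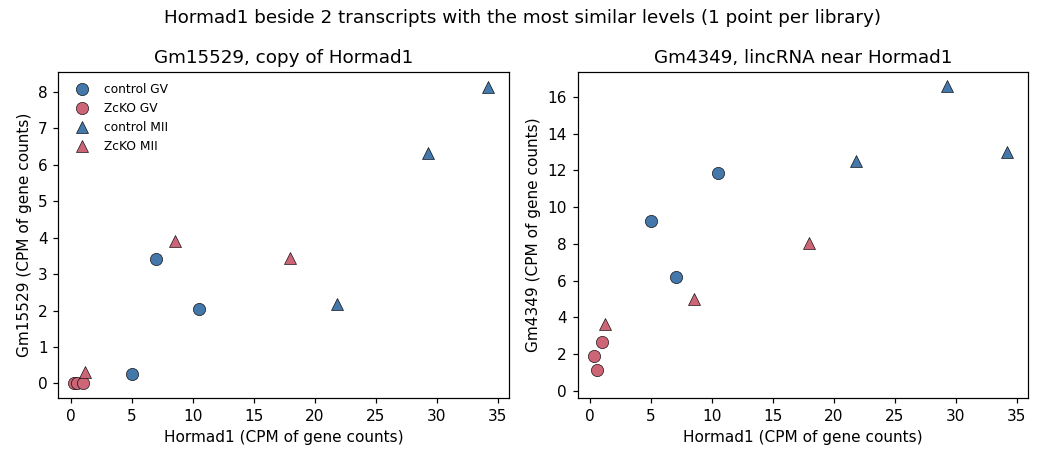
Gm15529 (left) and Gm4349 (right) against Hormad1, each axis in CPM of gene counts and each point 1 of the 12 libraries, coloured by genotype and shaped by stage. The 3 ZcKO GV libraries sit at the lower left of both panels, with Gm15529 at 0 and Gm4349 at 1.10 to 2.67 CPM.

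Hormad2, the partner of Hormad1 on unsynapsed axes, did not share its pattern. Its levels were 6.09, 4.75 and 6.17 CPM in control GV and 3.11, 2.20 and 6.998 CPM in ZcKO GV. At MII they were 4.91, 4.53 and 3.80 CPM in control and 4.21, 2.12 and 7.84 CPM in ZcKO. The ZcKO libraries were more spread than the controls and overlapped them at both stages. Neither the genotype difference (log2 -0.54, SE 0.43, adjusted p = 0.9999 at GV and 0.05, SE 0.50, adjusted p = 0.976 at MII) nor the change from GV to MII (-0.21, SE 0.47, adjusted p = 0.704 in control and 0.37, SE 0.50, adjusted p = 0.533 in ZcKO) passed the test. Relative to the spike-in, Hormad2 was lower at MII in both genotypes, by a log2 change of -1.96 each time (adjusted p = 0.0026 in control and 0.0029 in ZcKO), near the median of all genes.

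Sycp2, a rod of the axis that binds SYCP3, was the member with the highest CPM at MII and rose as a share of gene counts between the stages. It was at 78.1, 50.1 and 72.0 CPM in control GV and 207, 205 and 233 CPM in control MII. In ZcKO it was at 68.7, 69.4 and 67.3 CPM at GV and 224, 188 and 201 CPM at MII. Every MII library exceeded every GV library of its genotype, and the genotypes overlapped at each stage. Of all genes tested, the stages did not overlap for 67.3% in control and 65.3% in ZcKO. The log2 change was 1.84 (SE 0.18, adjusted p = 1.2e-07) in control and 1.71 (SE 0.19, adjusted p = 2.9e-07) in ZcKO. Relative to the spike-in Sycp2 did not change by the test, with log2 changes of 0.11 (SE 0.41, adjusted p = 0.809) and -0.64 (SE 0.41, adjusted p = 0.124). The difference between genotypes at MII was -0.11 (SE 0.15, adjusted p = 0.808), and at GV it was close to 0 with an SE of 0.20.

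Sycp3, the partner of SYCP2 in the axis core, also rose as a share of gene counts. Its levels were 17.2, 11.3 and 21.5 CPM in control GV and 35.7, 25.1 and 35.0 CPM in control MII. In ZcKO they were 9.64, 14.3 and 10.997 CPM at GV and 30.7, 40.6 and 72.7 CPM at MII, where 1 library was well above the others. The log2 change was 1.08 (SE 0.33, adjusted p = 0.00719) in control and 2.19 (SE 0.34, adjusted p = 2.0e-05) in ZcKO. The changes differed by 1.11 (SE 0.47), which did not pass the test (adjusted p = 0.875). Neither did the genotype differences, -0.56 (SE 0.30, adjusted p = 0.9999) at GV and 0.55 (SE 0.32, adjusted p = 0.601) at MII. Without ZcKO MII replicate 3, the highest library, the difference at MII was 0.09 (adjusted p = 0.944), the changes differed by 0.63 (adjusted p = 0.912), and the change in ZcKO was 1.72 (adjusted p = 2.0e-04). On the spike-in scale the sign turned, to -0.71 (adjusted p = 0.160) in control and -0.19 (adjusted p = 0.696) in ZcKO. Exons of Chpt1 on the opposite strand overlap 660 bases, 52.2% of the Sycp3 exons. With no strand setting stated, reads of the 2 genes in these bases cannot be told apart. Counts assigned to Chpt1 itself were lower, with group means of 1.03 to 4.38 CPM, and Chpt1 was also higher at MII, by 2.19 (SE 0.54, adjusted p = 0.00165) in control and 1.44 (SE 0.54, adjusted p = 0.0258) in ZcKO.

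Meioc, the germ cell RNA regulator, differed between genotypes in the direction opposite to Hormad1. Meioc lies at chr11:102663716-102682237 (plus strand, GRCm38), a protein-coding gene. It was at 4.06, 1.32 and 2.56 CPM in control GV (2.64 ± 1.37, SD) and 5.29, 8.82 and 6.33 CPM in ZcKO GV (6.81 ± 1.81). At MII its levels were 2.18, 3.62 and 1.63 CPM in control (2.48 ± 1.03) and 8.05, 14.8 and 17.8 CPM in ZcKO (13.6 ± 5.01). Each ZcKO library was above each control library of its stage, in CPM and per spike-in count. The log2 difference was 1.35 (SE 0.43) at GV, a 2.58-fold higher mean, and 2.42 (SE 0.44) at MII, a 5.48-fold higher mean. The control values rest on few reads, with 5 to 12 counts per library over both stages, against 17 to 50 in ZcKO. The share of genes that did not overlap is the one given for Hormad1, and nothing is read from Meioc being among them.

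The share of Meioc among gene counts differed little between the stages in control, with a log2 change of 0.07 (SE 0.50) that ran from -0.24 to 0.41 when 1 library was left out, and was higher at MII in ZcKO, with 1.14 (SE 0.40), though the ZcKO stages overlapped. Relative to the spike-in it was lower at MII in both, by -1.59 (SE 0.65) in control and -1.18 (SE 0.57) in ZcKO, which is above the median of all genes in ZcKO and near it in control. Scaled in the same way to the ERCC total of the library, Meioc went from 17.7, 9.24 and 22.2 counts at GV to 4.03, 8.37 and 3.94 at MII in control. In ZcKO it went from 69.2, 65.5 and 39.8 to 16.3, 32.8 and 26.9. The changes of Meioc differed between genotypes by 1.07 (SE 0.65) as a share of gene counts and by 0.41 (SE 0.83) relative to the spike-in. The genes most like Meioc over the 12 libraries were Ahcyl1 (r = 0.849), Trpa1 (r = 0.829) and Cc2d2a (r = 0.810). Trpa1, which encodes a cation channel, had means of 9.55 and 16.9 CPM at GV and 13.0 and 22.5 CPM at MII in control and ZcKO. Ahcyl1, an inhibitor of IP3 receptors, had means of 18.5 and 23.9 CPM at GV and 17.6 and 24.0 CPM at MII.

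Ythdc2, the helicase that binds MEIOC, changed with the stage and not, by the test, with the genotype. It was at 27.7, 21.1 and 23.0 CPM in control GV and 36.8, 42.9 and 40.5 CPM in control MII. In ZcKO its levels were 25.5, 32.8 and 23.0 CPM at GV and 55.2, 53.6 and 46.7 CPM at MII. All MII libraries lay above all GV libraries, and the stages did not overlap for 67.3% of all genes tested in control and 65.3% in ZcKO. At MII all ZcKO libraries lay above all controls in CPM, where 15.8% of all genes tested did not overlap. Per spike-in count the genotypes of Ythdc2 overlapped at MII. The log2 change from GV to MII was 0.89 (SE 0.21, adjusted p = 0.00118) in control and 1.07 (SE 0.21, adjusted p = 2.2e-04) in ZcKO. Relative to the spike-in it was -0.82 (adjusted p = 0.0891) and -1.25 (adjusted p = 0.00703), so Ythdc2 fell on that scale in ZcKO. The genotype differences were 0.14 (SE 0.23, adjusted p = 0.9999) at GV and 0.34 (SE 0.18, adjusted p = 0.581) at MII, against 2.42 for Meioc at MII.

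**Figure D3:**
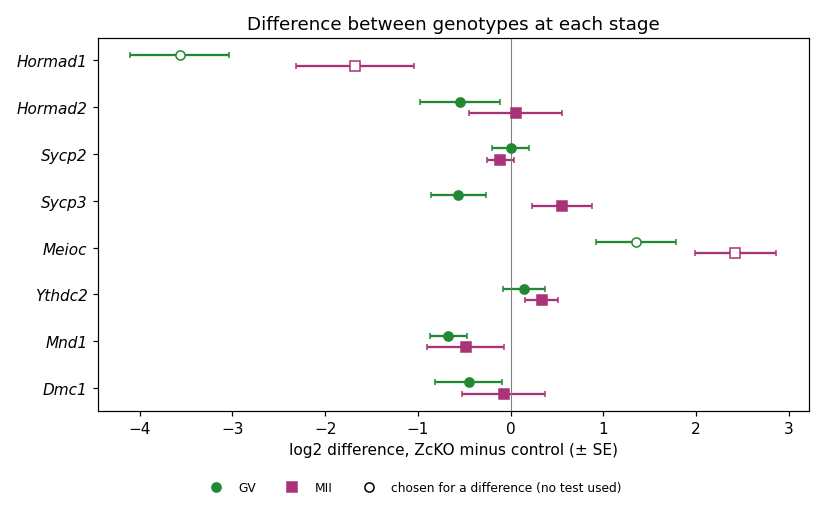
Log2 difference between genotypes (ZcKO minus control, horizontal axis) of the 8 members that passed the low-count filter, with bars of 1 SE, at GV (circles) and MII (squares). Open symbols mark Hormad1 and Meioc, which lie at -3.57 and -1.68 and at 1.35 and 2.42, while the tested members lie between -0.67 and 0.55.

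Mnd1, which forms the HOP2-MND1 complex that stimulates DMC1, was the only tested member that fell from GV to MII as a share of gene counts. It lies at chr3:84087933-84155786 on the minus strand. Its levels were 52.4, 44.3 and 42.2 CPM in control GV and 7.36, 22.04 and 14.7 CPM in control MII. In ZcKO they were 31.4, 28.4 and 30.0 CPM at GV and 14.6, 6.36 and 11.05 CPM at MII. The stages did not overlap in either genotype, as for 67.3% of all genes tested in control and 65.3% in ZcKO. The log2 change was -1.54 (SE 0.31, adjusted p = 2.6e-04) in control and -1.36 (SE 0.32, adjusted p = 0.00128) in ZcKO, and relative to the spike-in it was -3.18 (adjusted p = 2.1e-10) and -3.74 (adjusted p = 4.6e-13). At GV every ZcKO library was below every control, with a 1.55-fold lower mean, where 7.26% of all genes tested did not overlap. The log2 difference of -0.67 (SE 0.20) did not pass the test over all genes (adjusted p = 0.9999), and the genotypes overlapped per spike-in count. At MII the difference was -0.49 (SE 0.41, adjusted p = 0.708). A pseudogene, Mnd1-ps on chromosome 14, matched 824 bases of Mnd1 at 97.1% and had 0 to 6 counts per library.

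Dmc1, the meiosis-specific recombinase, was low throughout. Control libraries held 4.73, 4.49 and 4.90 CPM at GV and 3.27, 5.74 and 3.80 CPM at MII. ZcKO libraries held 3.11, 3.58 and 3.999 CPM at GV and 2.68, 4.24 and 5.35 CPM at MII. The GV genotypes did not overlap in CPM, by a narrow gap, where 7.26% of all genes tested did not overlap. Per spike-in count they overlapped. The log2 difference was -0.45 (SE 0.36, adjusted p = 0.9999) at GV and -0.07 (SE 0.45, adjusted p = 0.961) at MII. From GV to MII the change was -0.02 (SE 0.39, adjusted p = 0.970) in control and 0.35 (SE 0.42, adjusted p = 0.475) in ZcKO. On the spike-in scale Dmc1 fell, by -1.72 (adjusted p = 0.0103) and -1.96 (adjusted p = 0.0040), near the median of all genes.

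Mlh3, a subunit of a crossover endonuclease, had 3 to 12 counts per library and passed the low-count filter in no comparison. Its levels were 1.01, 1.85 and 2.56 CPM in control GV and 2.18, 1.10 and 1.67 CPM in ZcKO GV. At MII they were 1.09, 2.11 and 1.36 CPM in control and 2.68, 1.82 and 1.78 CPM in ZcKO. The genotypes overlapped at both stages.

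Per kilobase of exon, the order of the 9 genes in control GV was led by Mnd1 at 52.9 CPM per kb, followed by Sycp3 at 13.2 and Sycp2 at 11.2, whose ranges overlapped. Hormad1 (4.34) and Ythdc2 (2.70) came next and overlapped, then Hormad2 (2.07) and Dmc1 (1.93), which overlapped too. Meioc (0.573) and Mlh3 (0.239) were at the bottom, again with overlapping ranges. In ZcKO GV Mnd1 still led at 34.2 CPM per kb. Hormad1 stood in the eighth place at 0.359, with a range that overlapped that of Mlh3 at 0.218, and Meioc at 1.48 overlapped Hormad2 at 1.501 and Dmc1 at 1.46. In control MII, Sycp2 led at 36.1 CPM per kb, followed by Sycp3 at 25.3, Mnd1 at 16.8 and Hormad1 at 16.4, each of the last 3 overlapping its neighbour. In ZcKO MII, Sycp3 at 37.95 and Sycp2 at 34.2 led with overlapping ranges. Hormad1 at 5.35 there overlapped Ythdc2 at 5.84 and Meioc at 2.94. The axis core genes thus stood below Mnd1 per length at GV and above it at MII in the means of both genotypes, although Sycp3 and Mnd1 overlapped in control MII. The length used for Sycp3 includes the exon bases shared with Chpt1, and how reads there were counted is not given.

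Of the 7 members chosen as prophase genes, 6 passed the low-count filter. None was called between the genotypes at GV, where 0.0825% of all genes tested were called. Nor was any called at MII, where 0% were (0 of 9677 by edgeR, 872 at an unadjusted p under 0.05, and 4 by DESeq2). Pik3c3, the floxed gene itself, was not called at MII by edgeR (log2 difference -2.19, SE 0.39, adjusted p = 0.530). The absence of calls at MII therefore does not show that the genotypes were alike. From GV to MII 3 were higher (Sycp2, Sycp3, Ythdc2) and 1 was lower (Mnd1) in control, and the same counts and genes held in ZcKO. All genes tested were called at 63.9% in control, with 30.1% higher and 33.8% lower, and at 63.5% in ZcKO, with 29.5% higher and 34% lower, so calls in 4 of 6 members were near the background. The comparisons of stages within each genotype share no libraries. No member was called for a difference of the changes, where 0.00862% of genes were.

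**Figure D4:**
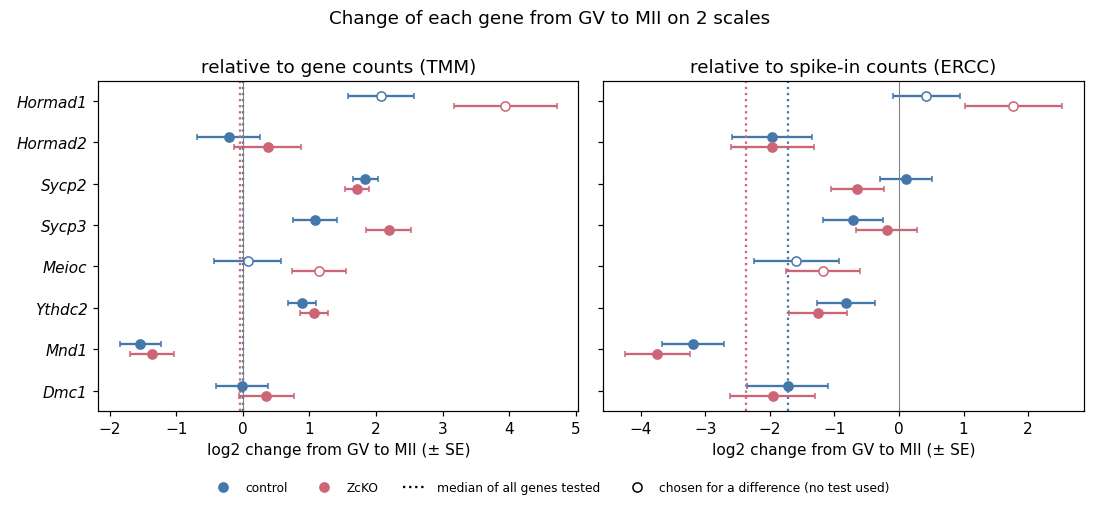
Log2 change from GV to MII (horizontal axis, bars of 1 SE) of 8 members in control and ZcKO, relative to gene counts (left) and to spike-in counts (right), where dotted lines mark the median of all genes tested. On the right the medians lie at -1.72 and -2.37, Hormad1 (open) lies above 0 in both genotypes, and Mnd1 lies below the medians at -3.18 and -3.74.

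The other genes of prophase were examined in 7 lists of 92 genes, of which 90 were found in the table. In no list was a gene called between genotypes, with 0 of 67 tested at GV and 0 of 64 at MII, where Pik3c3 was not called either. None was called for a difference of the changes, with 0 of 68. The median log2 difference over the lists was 0.03 at GV and 0.002 at MII, beside 0.01 and 0.02 over all genes tested. The most abundant gene of each list is given first, and less abundant genes can differ by more. Syce2, a central element protein of the synaptonemal complex, differed by -0.04 (SE 0.17) at GV and -0.30 (SE 0.16) at MII. Mei4, needed for break formation, differed by -0.45 (SE 0.22) and 0.23 (SE 0.18). Sfr1, a helper of strand exchange, differed by -0.11 (SE 0.18) and -0.07 (SE 0.14). Exo1, a nuclease of crossover formation, differed by 0.06 (SE 0.18) and -0.001 (SE 0.18). Dazl, the germ cell translation regulator, differed by -0.24 (SE 0.18) and -0.006 (SE 0.14). Terf1, a telomere-binding protein, differed by -0.02 (SE 0.20) and 0.79 (SE 0.40), and Chek1, a checkpoint kinase, by -0.10 (SE 0.18) and 0.10 (SE 0.14). The smallest adjusted p among these most abundant genes was 0.570, for Terf1 at MII. The second genes of the lists, Tex12, Zcwpw1, Brca2, Blm, Ythdf3, Sun1 and Hus1, had adjusted p of 0.644 or more at both stages. Named after their values were seen, Mus81 differed by -0.86 (SE 0.55, adjusted p = 0.632) and Mael by 0.80 (SE 0.35, adjusted p = 0.548) at MII. Trp53 differed there by -0.61 (SE 0.22, adjusted p = 0.530).

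From GV to MII, 31 of 68 list genes tested were higher and 16 lower in control as a share of gene counts, and 32 and 16 in ZcKO. Of all genes tested on this scale, 30.1% were higher and 33.8% lower in control, and 29.5% and 34% in ZcKO, and the counts of the single lists that follow stand beside the same shares. The median log2 change was 0.56 in control and 0.47 in ZcKO, beside 0.01 and -0.04 over all genes. Relative to the spike-in none was higher, and 41 in control and 59 in ZcKO were lower, with medians of -1.14 and -1.90 beside -1.72 and -2.37 over all genes. Of all genes tested, 0.56% in control and 0.801% in ZcKO were higher and 70.1% and 88% lower on this scale. The rises were therefore called only as a share of gene counts. Of the 4 largest in control, Ankrd31 (0.28), Tex11 (0.15) and Shoc1 (0.02) stayed above 0 relative to the spike-in without a call, and Rpa3 (-0.01) did not. Rpa2, Mus81, Ccdc155 and Psmc3ip fell on both scales in both genotypes.

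Among axis and synaptonemal complex genes, 2 of 4 tested were higher and 1 lower in each genotype. Sycp1, the transverse filament of the synaptonemal complex, rose from 13.5, 14.2 and 17.2 CPM to 52.3, 38.9 and 29.6 CPM in control and from 10.3, 14.9 and 16.7 CPM to 39.1, 42.7 and 52.8 CPM in ZcKO. Its log2 change was 1.57 (SE 0.27, adjusted p = 6.9e-05) in control and 1.84 (SE 0.28, adjusted p = 1.6e-05) in ZcKO, close to that of Sycp2. Syce2 fell, from a mean of 643.9 to 145.1 CPM in control.

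Among genes of double-strand break formation, 3 of 5 tested were higher and 1 lower in control, and 2 and 1 in ZcKO. Ankrd31, which helps place breaks, rose by 1.98 (SE 0.40, adjusted p = 2.8e-04) in control and 1.48 (SE 0.39, adjusted p = 0.0026) in ZcKO. Mei4 rose by 1.275 (SE 0.21, adjusted p = 4.6e-05) in control and 1.94 (SE 0.22, adjusted p = 5.0e-07) in ZcKO. Spo11, which makes the breaks, had 0 counts in all 12 libraries.

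Strand exchange and repair genes included the partners of Mnd1, and of 23 tested 10 were higher and 5 lower in control, against 12 and 5 in ZcKO. Psmc3ip encodes HOP2, the second subunit of the HOP2-MND1 complex, and it fell with Mnd1 and further. Its levels were 50.1, 45.9 and 49.6 CPM in control GV and 0.818, 5.13 and 4.34 CPM in control MII. In ZcKO they were 60.3, 52.1 and 53.3 CPM at GV and 0.766, 5.75 and 2.85 CPM at MII. The log2 change of Psmc3ip was -3.70 (SE 0.41, adjusted p = 4.7e-07) in control and -3.93 (SE 0.43, adjusted p = 3.1e-07) in ZcKO, and both MII groups stood far below both GV groups.

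The subunits of RPA, which coats single-stranded DNA, moved in opposite directions. Rpa2 fell by -4.39 (SE 0.35, adjusted p = 4.7e-09) in control and -4.07 (SE 0.34, adjusted p = 1.1e-08) in ZcKO. Rpa3 rose by 1.76 (SE 0.18, adjusted p = 1.9e-07) and 2.13 (SE 0.19, adjusted p = 1.8e-08) as a share of gene counts, and by the spike-in its change was -0.01 and -0.24. Rpa1, named after its values were seen, fell by -1.63 (SE 0.21, adjusted p = 2.7e-06) and -2.23 (SE 0.22, adjusted p = 8.5e-08).

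Crossover genes were higher in 4 and lower in 2 of 10 tested in control, and in 5 and 2 in ZcKO. Tex11 and Shoc1, which stabilise crossover intermediates, were among the higher ones. Tex11 rose by 1.92 (SE 0.25, adjusted p = 3.6e-06) in control and 1.88 (SE 0.26, adjusted p = 5.2e-06) in ZcKO. Shoc1 rose by 1.67 (SE 0.22, adjusted p = 3.9e-06) in control and 1.69 (SE 0.22, adjusted p = 3.8e-06) in ZcKO. Mus81, a nuclease that cuts joint molecules, fell from 156, 153 and 134 CPM to 6.82, 5.43 and 7.33 CPM in control and from 124, 133 and 199.95 CPM to 6.51, 3.94 and 0.713 CPM in ZcKO. Its log2 change was -4.34 (SE 0.33, adjusted p = 2.9e-09) and -5.21 (SE 0.36, adjusted p = 1.1e-09).

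Of the genes of meiotic entry and partners of MEIOC and YTHDC2, 5 of 10 tested were higher and 2 lower in control, and 5 and 3 in ZcKO. The following were named after their values were seen. Xrn1, an exonuclease that binds YTHDC2, rose by 1.53 (SE 0.23, adjusted p = 1.2e-05) in control and 1.55 (SE 0.22, adjusted p = 9.4e-06) in ZcKO as a share of gene counts. Rbm46, an RNA-binding partner of MEIOC and YTHDC2, passed no filter and stood at 0 to 1.78 CPM. Stra8, the inducer of meiotic entry, had 0 counts in all libraries. Telomere genes were higher in 2 and lower in 2 of 6 in both genotypes. The lower ones included Ccdc155, which encodes KASH5, the link of telomeres to dynein, at -4.25 (SE 0.37, adjusted p = 1.5e-08) in control and -4.61 (SE 0.38, adjusted p = 8.6e-09) in ZcKO. Checkpoint genes were higher in 5 and lower in 3 of 10 in control and in 4 and 2 in ZcKO.

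**Figure D5:**
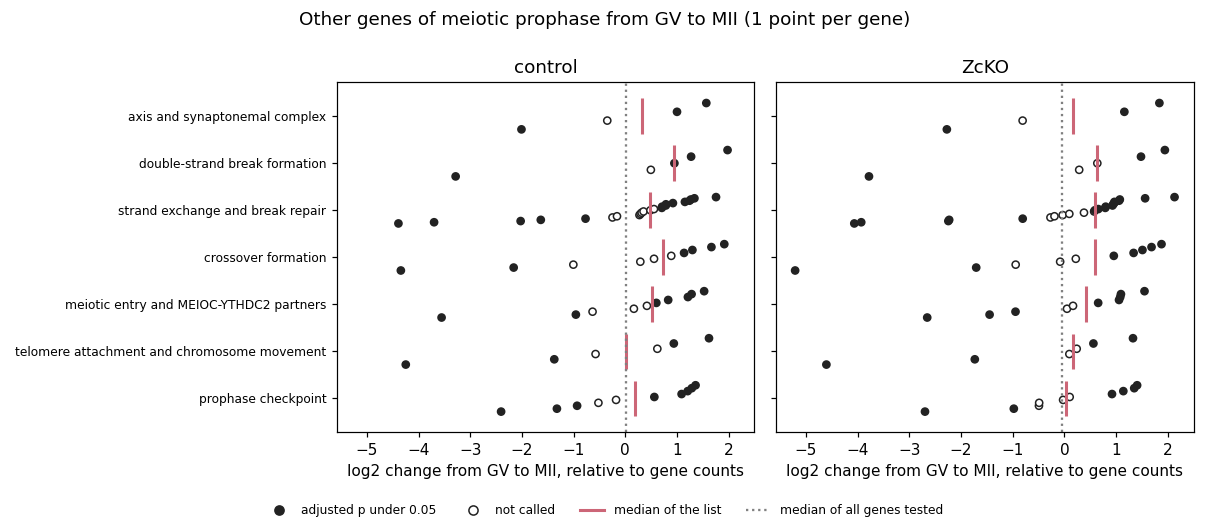
Log2 change from GV to MII relative to gene counts (horizontal axis) of the tested genes in 7 lists, in control (left) and ZcKO (right), with filled points for adjusted p under 0.05 and the height within a row set by rank only. Red bars are list medians and the dotted line is the median of all genes tested; Mus81, Rpa2, Ccdc155 and Psmc3ip lie furthest to the left in both panels, at -3.70 or below.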

How the data were processed

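The authors deposited raw read counts of the oocyte pools by gene symbol, in 1 table of 55383 entries, 92 of them ERCC spike-ins. Per the submitters' processing notes fastp, HISAT2, featureCounts and mm10 were used, without versions. Not given in the sources used here are the annotation, the strand setting and the treatment of multi-mapped reads. The table's 12 GV and MII columns were matched to samples by name, and 6 further columns were not used.

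The tests used edgeR 4.0.16 (R 4.3.3) with its usual chain (TMM, filterByExpr, robust quasi-likelihood, Benjamini-Hochberg over all genes tested, threshold 0.05). Genotypes were compared within the 6 libraries of a stage, and stage changes and their difference (interaction) came from 1 fit of 12 libraries, without a replicate block. SE is the size of the log2 change over the square root of F. Spike-in values used ERCC totals as library sizes. DESeq2 1.42.0 was an alternative. The procedure was also run on simulated counts with known changes, for the genotypes at GV and for GV to MII in control. The genotypes at MII were not simulated, and the outcome is not given here.

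The members and lists were chosen with earlier results of these data known. Named genes were the members, Pik3c3, the 4 largest called changes of list genes in each direction, the 3 genes most like Hormad1 and Meioc among genes with at least 10 counts in at least 3 libraries, and the 2 most abundant genes of lists without a call. Positions and exon lengths are from GENCODE (GRCm38), and promoter windows are from RefSeq, taken by symbol for 8 members. The window search skipped chromosome 18, where Ythdc2 lies, so Ythdc2 has no window. Copies were sought by aligning member transcripts to all transcripts (at least 200 bases at 90% identity). Spo16 and Speedya were not matched, and 7 list genes were matched through RefSeq synonyms. Without molecular identifiers, a limit from 0 counts covers only counting error. Within each group the libraries differed beyond sampling noise (smallest chi-square 4.87 per degree of freedom). The values of 1 gene of the crossover list are not reported here.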

Additional observations from a re-analysis of the deposited data

How the results depend on the processing

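The calls of Sycp2, Sycp3, Ythdc2 and Mnd1 as shares of gene counts held with other size factors, without a filter, in DESeq2, with the block and without any 1 library, and with the spike-in as the scale Mnd1 kept its call and the others changed as the text gives. Genes called at GV numbered 28 without the low-count filter, 3 in 1 fit of 12 libraries and 2 to 10 when 1 library was left out. At MII 96 were called without the filter and 4 by DESeq2. For the difference of the changes 3 were called with ERCC totals, 18 without the filter, 5 by DESeq2 and 0 to 3 when 1 library was left out. Of the 9 members, 2 had a higher mean at MII per spike-in in control and 1 in ZcKO, against 4 and 8 in CPM. With ERCC totals the sign turned for Sycp2 at GV (0.48), Hormad2 at MII (-0.18), the stage changes of Ythdc2 (-0.82 in control, -1.25 in ZcKO), Sycp3 (-0.71, -0.19) and, in ZcKO, Hormad2 (-1.96), Sycp2 (-0.64) and Dmc1 (-1.96), and the difference of changes of Ythdc2 (-0.43), Mnd1 (-0.56) and Dmc1 (-0.23); the median of all genes moves with this scale. Sycp2 at GV, near 0, was 0.00092 with DESeq2 size factors, 0.000916 in DESeq2, 0.00049 in 1 fit of 12 libraries and -0.15 to 0.088 with 1 library left out. Leaving out 1 library also gave ranges across 0 for Ythdc2 at GV (-0.020 to 0.28), Hormad2 (-0.57 to 0.43) and Dmc1 (-0.33 to 0.15) at MII, the stage change of Dmc1 in control (-0.23 to 0.092) and of Hormad2 in ZcKO (-0.26 to 0.92), and the difference of changes of Hormad2 (-0.051 to 1.14), Sycp2 (-0.21 to 0.0069) and Mnd1 (-0.12 to 0.53). Meioc, which carries no test, had a stage change in control of -0.24 to 0.41 with 1 library left out, and with ERCC totals its stage changes turned from 0.07 to -1.59 in control and from 1.14 to -1.18 in ZcKO. None of the tested values with a range across 0 passed the test with all libraries, and the cause was not tested.

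With the replicate number as a block, 11 genes were called at GV, 0 at MII, 7272 from GV to MII in control, 7233 in ZcKO and 1 for the difference, and Sycp2 at GV was 0.013 and Hormad2 at MII -0.058. Same-numbered libraries correlated at -0.317 to 0.334 over 18 pairs, 2 of them over 0.1, and 7 correlated best with their own number, so the numbers were not taken to pair the samples. Counts were low for Mlh3, at 3 to 12 counts per library, Hormad1 in ZcKO GV, at 1 to 3 counts, and Meioc in control, at 5 to 12 counts.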

Other observations

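The genes around Hormad1 and Meioc were examined after the values were seen. Within 500 kb of Hormad1, 27 other genes were tested at GV and none was called, with log2 differences between genotypes from -2.31 (the lincRNA Gm4349) to 0.93 and a median of -0.05. The genotypes did not overlap for 2 of them with ZcKO higher and for 1, Gm4349, with ZcKO lower, where 7.26% of all genes tested did not overlap. At MII 23 were tested and none was called, from -1.38 to 1.35, with no overlap for 1 higher and 5 lower in ZcKO, where 15.8% of all genes did not overlap. Around Meioc 12 genes at GV lay between -0.23 and 0.53 and 9 at MII between -1.004 and 0.48, with none called.

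Several prophase genes were not detected. Syce3 (a synaptonemal complex protein), Spo11, Spata22 and Mcmdc2 (strand exchange factors), Stra8 and Majin (a telomere attachment protein) had 0 counts in all 12 libraries, which allows up to 1.15 CPM in the shallowest. A low gene with separate genotypes in CPM, picked after its values were seen, was Prdm9, the histone methyltransferase that places breaks. It was at 0.676, 0.264 and 0.426 CPM in control GV and 2.18, 1.10 and 1.33 CPM in ZcKO GV. At MII its levels were 0.273, 2.11 and 0.543 CPM in control and 2.30, 3.03 and 2.14 CPM in ZcKO. The gap at MII, from 2.11 to 2.14 CPM, was narrow and rests on few counts, and relative to the spike-in the MII genotypes overlapped. Of all genes tested, a set without Prdm9, 7.26% at GV and 15.8% at MII had genotypes that did not overlap. Prdm9 passed the low-count filter in no comparison, and without this filter 0 genes of the prophase lists were called between genotypes at either stage.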
